A study of Mus musculus with 6 samples.

Results

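The GADD45 genes and the kinases they act through were followed in the retina of mice labelled Unc119-/-. The members are Gadd45a, Gadd45b, Gadd45g, Map3k4 and Mapk14, matched by exact symbol, and all 5 were found among the 24346 genes listed. The group was selected on the FPKM of Gadd45b, which was higher in the knockout in these same libraries, and the other members are its paralogs and partner kinases. The difference between the genotypes is therefore given for the members as a description, with no test.

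Whole retina was profiled in 2 groups, Unc119-/- (KO, 3 libraries) and Unc119+/+ (WT, 3 libraries). UNC119 is a carrier of lipid-modified proteins, among them transducin, in photoreceptors. The labels used here do not describe how the knockout was made or the age, strain and sex of the mice. The labels do not say that each library came from a separate animal, so p-values measure the spread between libraries, which may be partly technical.

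GADD45 proteins (growth arrest and DNA damage inducible) are small nuclear proteins whose mRNAs are switched on by stress, cytokines and, in mouse neurons, by activity. They are not enzymes and act by binding other proteins. Binding to the kinase MAP3K4 opens it for activation, and MAP3K4 then signals through MAP2K3 and MAP2K6 to p38 kinases such as p38 alpha (Mapk14), and through MAP2K4 and MAP2K7 to JNK. GADD45B also binds MAP2K7 directly and restrains JNK. Other partners are PCNA, the cell cycle inhibitor p21 and the repair proteins used in active DNA demethylation.

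The 3 GADD45 genes are short and lie on separate chromosomes. In GENCODE M21 (GRCm38, the mm10 build) Gadd45b (ENSMUSG00000015312.9) spans 2132 bases of chromosome 10, 80930073 to 80932204 on the plus strand, and no other annotated gene overlaps it. Gadd45a (ENSMUSG00000036390.8) spans 2362 bases of chromosome 6, 67035096 to 67037457 on the minus strand, and overlaps the noncoding gene E230016M11Rik on the other strand. Gadd45g (ENSMUSG00000021453.2) spans 1791 bases of chromosome 13, 51846678 to 51848468 on the plus strand, with no overlapping gene. The first annotated transcript of each has 4 exons. Both kinase genes are long and lie on chromosome 17, Map3k4 (ENSMUSG00000014426.9) over 91176 bases, 12227621 to 12318796 on the minus strand, and Mapk14 (ENSMUSG00000053436.15) over 57078 bases, 28691329 to 28748406 on the plus strand. Mapk14 overlaps the protein-coding gene AC170998.1 on the same strand, and Map3k4 overlaps a pseudogene and a snoRNA gene on the other strand, so reads there are uncertain.

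The promoters of the 3 paralogs are shown as a description. A link between their motifs and the levels in the genotypes was not tested. Each window runs from 250 bases before to 50 bases after the start that RefSeq annotates (GRCm38.p6), 5′ to 3′ on the strand of the gene. These starts differ from the GENCODE gene bounds above, so the distances hold for the RefSeq starts only. Capitals mark exact matches, on either strand, to the CCAAT box (CCAAT), the TATA box (TATAAA), the octamer (ATTTGCAT) and the E-box (CACGTG).
Gadd45b, chr10:80929841-80930140, plus strand: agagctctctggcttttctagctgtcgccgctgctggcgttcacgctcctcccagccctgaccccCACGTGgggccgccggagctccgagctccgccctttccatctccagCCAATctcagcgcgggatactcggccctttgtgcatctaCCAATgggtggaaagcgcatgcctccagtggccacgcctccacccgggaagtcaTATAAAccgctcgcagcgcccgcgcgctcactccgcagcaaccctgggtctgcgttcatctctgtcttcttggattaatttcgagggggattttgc
Gadd45a, chr6:67037358-67037657, minus strand: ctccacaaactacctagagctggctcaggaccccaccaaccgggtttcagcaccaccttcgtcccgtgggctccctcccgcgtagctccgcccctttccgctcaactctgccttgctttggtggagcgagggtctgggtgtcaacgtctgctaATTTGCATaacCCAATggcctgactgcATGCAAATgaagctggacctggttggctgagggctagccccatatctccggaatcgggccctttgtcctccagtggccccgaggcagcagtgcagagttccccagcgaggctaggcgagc
Gadd45g, chr13:51846425-51846724, plus strand: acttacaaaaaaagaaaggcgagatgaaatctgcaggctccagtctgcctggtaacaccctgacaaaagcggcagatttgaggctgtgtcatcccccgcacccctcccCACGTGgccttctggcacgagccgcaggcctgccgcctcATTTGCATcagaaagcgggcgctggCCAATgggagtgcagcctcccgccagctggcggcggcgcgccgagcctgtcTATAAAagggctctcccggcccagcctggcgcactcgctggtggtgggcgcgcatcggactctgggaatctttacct
Each paralog had a CCAAT match within 100 bases of the start, first base at −100 in Gadd45b, −86 in Gadd45a and −78 in Gadd45g. Gadd45b had another at −139. Gadd45b and Gadd45g also held a TATA match, at −46 and −27, and an E-box, at −185 and −142, while the window of Gadd45a held neither. The octamer was matched at −97 and −70 in Gadd45a and at −103 in Gadd45g, and these letters are not in the window of Gadd45b.

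Over all 32851 RefSeq promoter windows of that length, 37.4% held CCAAT, 13.6% TATAAA, 1.74% the octamer and 7.15% the E-box. The same windows were searched for GGGCGG (GC box, in 35.7% of windows), TTNNGNAA (C/EBP, 40.7%), TTCNNNGAA (STAT, 8.30%), TGANTCA (AP-1, 7.81%), TGACGTCA (CRE, 1.79%) and the NF-kB consensus (8.46%), on both strands. The Gadd45b window held a GC box match at −158 and no match to the other 5. Sequence outside the windows was not searched, so sites may lie elsewhere around the gene. Gadd45a held a GC box match at −163 and a C/EBP match at −95 that overlaps its octamer, and Gadd45g a C/EBP match at −248. GC content was 62% in the Gadd45b window, 61% in Gadd45a and 62.3% in Gadd45g, against a median of 52.7% over all windows. The motif map shows a CCAAT match near each start and the TATA and octamer matches that divide the paralogs.

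**Figure D1:**
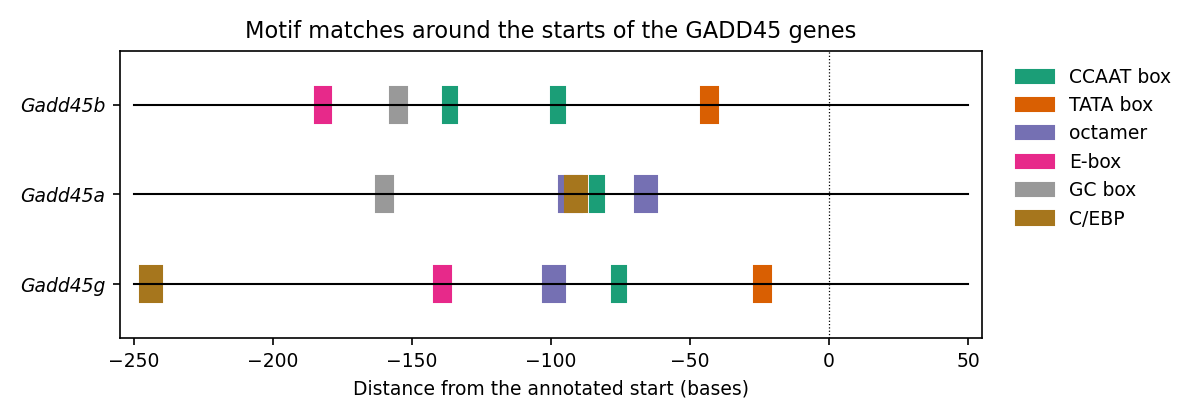
Positions of exact motif matches in the promoter windows of Gadd45b, Gadd45a and Gadd45g, as distance from the annotated start in bases (x axis), with 1 row per gene and a coloured block per match on either strand. Each row has a CCAAT match within 100 bases of the start, TATA matches stand only in Gadd45b and Gadd45g, and octamer matches only in Gadd45a and Gadd45g.

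The targeted gene was checked first. Unc119 measured 510, 460 and 449 FPKM in KO-1, KO-2 and KO-3, against 1191, 1187 and 1206 FPKM in WT-1, WT-2 and WT-3 (FPKM, fragments normalised to transcript length and library size). Every KO library was below every WT library, with a log2 change of −1.34 (SE 0.06, limma adjusted p = 6.6e-05). The KO mean was 0.396 of the WT mean, so RNA from the locus was still measured in KO, and values per gene do not show which exons it covers. Retinal identity was plain in each library: the 10 photoreceptor markers summed to 19411 to 20538 FPKM in KO and 19287 to 20782 FPKM in WT. The absolute depth is unknown from FPKM. Relative to WT-2, depth was 0.927 to 0.963 in KO and 0.762 to 1 in WT. Lens RNA differed between libraries, with 13 lens markers summing to 254, 624 and 11552 FPKM in KO-1, KO-2 and KO-3, against 137, 761 and 0.423 FPKM in WT-1, WT-2 and WT-3. By Xist and Y-linked genes KO-1, WT-1 and WT-2 were male and the other libraries female. Of the 14176 genes tested, 29 were called higher in KO (0.205%) and 4 lower (0.0282%), with limma adjusted p under 0.05. Without KO-1, KO-2, KO-3, WT-1, WT-2 or WT-3 in turn, 17, 12, 24, 9, 14 and 11 genes were called higher.

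Gadd45b was the member that differed between the genotypes. It measured 9.50, 11.6 and 10.7 FPKM in KO-1, KO-2 and KO-3, against 4.14, 4.33 and 4.65 FPKM in WT-1, WT-2 and WT-3. Every KO library stood above every WT library, with a wide gap between them. The mean was 10.6 ± 1.03 FPKM in KO and 4.37 ± 0.260 FPKM in WT (SD, n = 3 each), a ratio of 2.42. On the log2(FPKM + 1) scale, which understates changes of low genes, the difference was 1.11 (SE 0.09, 95% interval 0.89 to 1.32). Its absolute size exceeded that of 99.2% of the genes tested, whose median absolute change was 0.08. This rank is a description, since Gadd45b was chosen for its rise. A log2 change at least as high was found for 79 genes, Gadd45b included, of which 9 were among those called.

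The levels of Gadd45b within each sex are given as a description. Its genotypes did not overlap, so any split of the libraries has the same direction. In males Gadd45b measured 9.50 FPKM in the KO library and averaged 4.23 FPKM in the 2 WT libraries, a ratio of 2.25. In females it averaged 11.1 FPKM in the 2 KO libraries, against 4.65 FPKM in the WT library, a ratio of 2.39. KO-3, the library with by far the most lens RNA, had a level between those of KO-1 and KO-2. Without KO-3 the log2 change of Gadd45b was 1.10.

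Gadd45a, the paralog best known as a target of p53 after DNA damage, was the most abundant of the 3. It measured 16.3, 16.9 and 19.5 FPKM in KO-1, KO-2 and KO-3, against 23.9, 16.7 and 21.0 FPKM in WT-1, WT-2 and WT-3. The genotypes overlapped, since WT-2 lay among the KO values. The log2 change was −0.21 (SE 0.13, 95% interval −0.50 to 0.09). It was −0.09 without WT-1 and −0.34 without WT-2, so its size hung on single WT libraries. E230016M11Rik, the noncoding gene on the opposite strand, averaged 8.97 ± 1.48 FPKM in KO and 9.83 ± 0.932 FPKM in WT (SD, n = 3 each). Whether the authors counted by strand is not stated in the labels, so reads from the pair cannot be told apart.

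Gadd45g, a paralog needed together with Map3k4 for male sex determination in mouse embryos, measured 9.24, 7.00 and 10.0 FPKM in KO-1, KO-2 and KO-3. The WT-1, WT-2 and WT-3 libraries had 8.54, 7.80 and 8.63 FPKM, all inside the range of the KO libraries. The log2 change was 0.05 (SE 0.12, 95% interval −0.23 to 0.34). It was −0.04 without KO-3 and 0.19 without KO-2, so its direction hung on single libraries.

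Map3k4, the kinase that GADD45 proteins bind and open, had overlapping genotypes. It measured 15.8, 15.6 and 16.7 FPKM in KO-1, KO-2 and KO-3, against 15.1, 17.3 and 16.4 FPKM in WT-1, WT-2 and WT-3. The log2 change was −0.01 (SE 0.07, 95% interval −0.17 to 0.14), and it was 0.00 without KO-2 and 0.03 without WT-2.

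Mapk14, p38 alpha, was the most abundant member in every library. It measured 27.5, 30.2 and 30.4 FPKM in KO-1, KO-2 and KO-3, against 26.6, 28.7 and 29.2 FPKM in WT-1, WT-2 and WT-3. The genotypes overlapped, and the log2 change was 0.06 (SE 0.06, 95% interval −0.09 to 0.20). mRNA levels of these kinases say nothing of their phosphorylation.

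**Figure D2:**
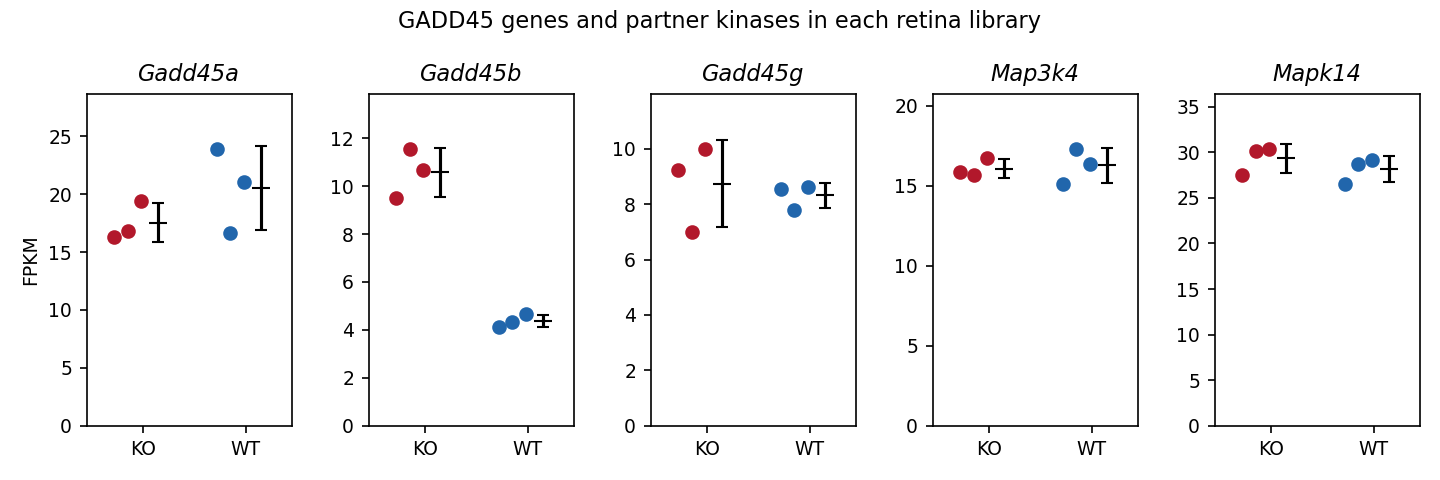
FPKM of the 5 members (y axis, from 0, own scale per gene) in the KO (red) and WT (blue) libraries, replicates 1 to 3 from left to right, with mean and SD in black. Gadd45b lies at 9.50 to 11.6 FPKM in KO, above 4.14 to 4.65 FPKM in WT, and the other 4 members overlap.

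All 5 members passed the filter of a mean of 0.5 FPKM. The fit across all genes called 1 of 5 higher, Gadd45b, and none lower, where the background over all genes is 0.205% called higher, 0.0282% lower and 0.233% in either direction. The choice of the group used this contrast, so nothing is read from that count. With no filter on low values and with the lens level as a term Gadd45b was not called, at log2 changes of 1.11 and 1.13. Every KO library stood above every WT library for 1 of 5 members, against 7.83% of all genes tested, and below for none, against 8.04%. Over all genes tested the median log2 change was −0.00.

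The makeup of the GADD45 pool differed with Gadd45b. Gadd45b made up 27.1%, 32.6% and 26.6% of the summed FPKM of the 3 paralogs in KO-1, KO-2 and KO-3, against 11.3%, 15.0% and 13.6% in WT-1, WT-2 and WT-3. Gadd45a held 47.5% ± 1.01 of the sum in KO and 61.5% ± 3.73 in WT, and Gadd45g 23.7% ± 3.48 in KO and 25.2% ± 1.87 in WT (SD, n = 3 each). The sum itself overlapped, at 35.0, 35.4 and 40.1 FPKM in KO-1, KO-2 and KO-3, against 36.6, 28.8 and 34.3 FPKM in WT-1, WT-2 and WT-3. The stacked shares show the Gadd45b part wider in each KO bar, while Gadd45a stays the largest part of every bar.

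**Figure D3:**
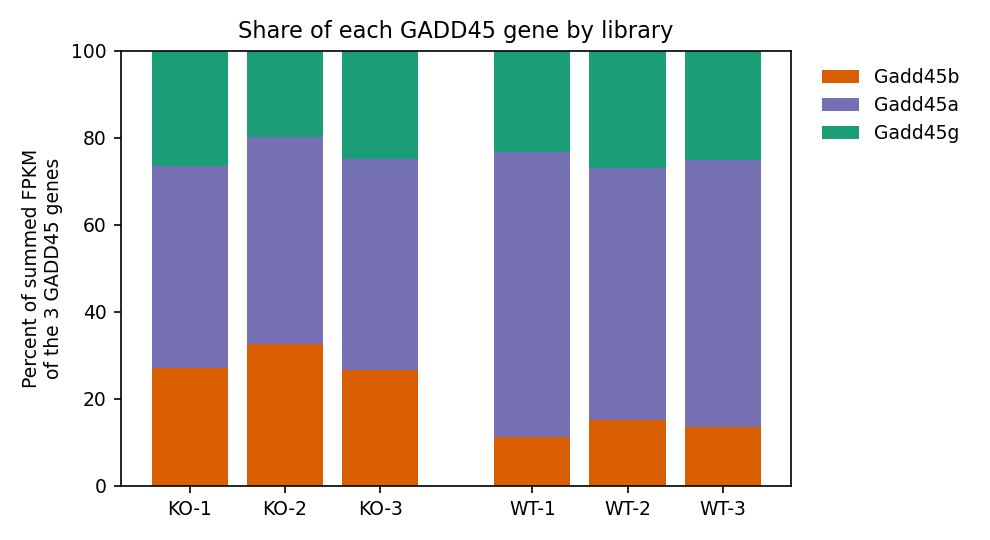
Percent of the summed FPKM of Gadd45b, Gadd45a and Gadd45g (y axis) taken by each gene in each library (x axis). Gadd45b takes 26.6% to 32.6% in the KO libraries and 11.3% to 15.0% in the WT libraries.

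By level per transcript length, Gadd45b stood at a different place among the members in each genotype. In KO the order of mean FPKM was Mapk14 (29.4), Gadd45a (17.5), Map3k4 (16.1), Gadd45b (10.6) and Gadd45g (8.75). In WT it was Mapk14 (28.2), Gadd45a (20.5), Map3k4 (16.3), Gadd45g (8.32) and Gadd45b (4.37). Gadd45b exceeded Gadd45g within 3 of 3 KO libraries and within 0 of 3 WT libraries. In KO the ranges of these neighbours overlapped across libraries, and in WT they did not. Gadd45a and Map3k4, the other close pair, overlapped in both genotypes: Gadd45a was above Map3k4 within 3 of 3 KO and 2 of 3 WT libraries. Gadd45b stood at percentile 38.7 of mean FPKM among all genes tested, Gadd45g at 42.3, Map3k4 at 62.8, Gadd45a at 68.0 and Mapk14 at 79.8.

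The members did not vary as one. Across the 6 libraries, which share the genotype difference, Gadd45b correlated at r = −0.53 with Gadd45a, 0.10 with Gadd45g, −0.10 with Map3k4 and 0.54 with Mapk14 (Pearson, log2(FPKM + 1), a description). After each genotype mean was subtracted the values with Gadd45b were 0.02 for Gadd45a, −0.53 for Gadd45g, 0.17 for Map3k4 and 0.86 for Mapk14, over the same 6 libraries. The Mapk14 deviations behind that last value are small, with an SD of 0.07 within a genotype.

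Among the other 13163 genes with a mean of at least 1 FPKM, those most like Gadd45b across the 6 libraries were Spidr (r = 0.998), Agtpbp1 (0.997), Sox30 (0.996), Edn2 (0.995) and Gnb3 (0.995). SPIDR is a scaffold of homologous recombination repair, AGTPBP1 trims glutamates from tubulin, SOX30 is a transcription factor of the male germ line, Edn2 encodes endothelin 2 and GNB3 is the transducin beta subunit of cones. All 5 were highest in KO-2 or KO-3 and lowest in WT, as the likeness asks. Edn2 measured 31.7, 42.3 and 37.5 FPKM in KO-1, KO-2 and KO-3, against 3.29, 2.99 and 3.12 FPKM in WT-1, WT-2 and WT-3. Sox30 measured 15.9, 19.5 and 17.1 FPKM in KO-1, KO-2 and KO-3, against 8.35, 7.89 and 8.42 FPKM in WT-1, WT-2 and WT-3. Both follow the order KO-2, KO-3, KO-1 that Gadd45b has, as do Spidr and Agtpbp1, while Gnb3 was highest in KO-3. The rank of likeness rests mainly on the gap between genotypes. With genotype means subtracted the nearest genes were others, Gbp7, Dhh, Mon1b, 2700049A03Rik and Kcnq3, with r of 0.990 to 0.999.

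**Figure D4:**
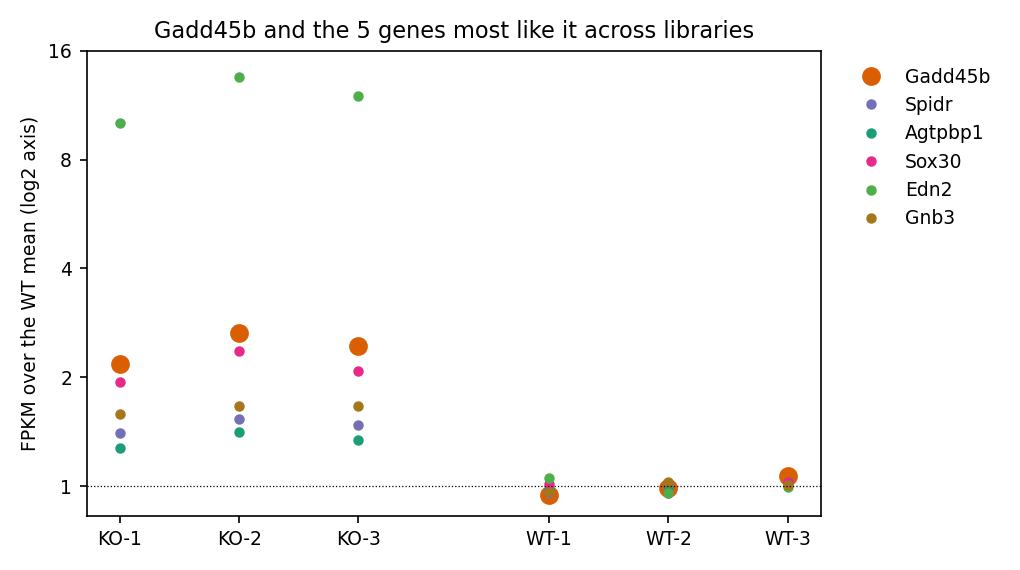
FPKM of Gadd45b (large points) and of the 5 genes most like it, each divided by its WT mean (y axis, log2 axis), in each library (x axis). All 6 genes lie above 1 in the KO libraries, Gadd45b between Edn2 above it and Sox30 below it, and near 1 in the WT libraries.

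The rest of the cascade was read from 8 lists around the members, with 124 distinct genes of which 109 were tested. Across these lists 1 gene was called higher in KO, or 0.917% of those tested beside 0.205% of all genes, and none lower. That gene was Cebpd, and its call was lost without any 1 of the libraries. The lists were chosen with earlier results of these data known, so nothing is read from that share. At an unadjusted p under 0.05 limma gave 10 of the 109 (9.17%), beside 1276 of the 14176 genes tested (9.0%). The median log2 change of the 109 was −0.01, beside −0.00 for all genes. Every KO library stood above every WT library for 9 of the 109 (8.26%, beside 7.83% of all genes), and below for 8 (7.34%, beside 8.04%).

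The kinases between GADD45 and gene regulation had no call. Of 19 tested members of the p38 and JNK cascade 9 were higher and 10 lower, with a median log2 change of −0.01. Map2k7, the JNK kinase that GADD45B binds, was the most abundant of them at 60.9, 61.0 and 60.1 FPKM in KO-1, KO-2 and KO-3, against 54.4, 62.4 and 68.0 FPKM in WT-1, WT-2 and WT-3. Its log2 change was −0.01 (SE 0.08, limma adjusted p = 0.968), with the KO values inside the WT range. Mapk8, JNK1, was below every WT library in each KO library, at 18.9, 18.7 and 16.3 FPKM in KO-1, KO-2 and KO-3, against 20.1, 20.4 and 20.4 FPKM in WT-1, WT-2 and WT-3 (log2 change −0.17, SE 0.07, limma adjusted p = 0.524). Among the other p38 genes, Mapk11 averaged 6.40 ± 0.319 FPKM in KO and 6.31 ± 0.394 FPKM in WT. Mapk12 averaged 7.31 ± 0.938 FPKM in KO and 5.51 ± 1.12 FPKM in WT (SD, n = 3 each, limma adjusted p = 0.526). Mapk13 was under the filter. The kinases directly above p38 had log2 changes of 0.11 for Map2k3 and −0.18 for Map2k6, neither called.

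The effectors below p38 had no call either, with 7 of 13 tested members higher, 6 lower and a median of 0.03. Mapkapk2, the kinase through which p38 stabilises cytokine mRNAs, measured 17.5, 17.6 and 17.7 FPKM in KO-1, KO-2 and KO-3. The WT-1, WT-2 and WT-3 libraries had 15.3, 15.9 and 14.1 FPKM, each below every KO library, and the log2 change was 0.21 (SE 0.06, limma adjusted p = 0.412). Its relative Mapkapk5 lay below WT in each KO library, at 28.0 ± 1.27 FPKM in KO and 30.2 ± 0.165 FPKM in WT (SD, n = 3 each, limma adjusted p = 0.582). The most abundant member, the transcription factor gene Mef2d, averaged 89.5 ± 2.93 FPKM in KO and 94.6 ± 8.79 FPKM in WT (limma adjusted p = 0.756).

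The phosphatases that switch p38 and JNK off had no call, with 2 of 9 tested members higher, 7 lower and a median of −0.08. Dusp10, which removes phosphate from p38 and JNK, measured 7.05, 7.35 and 6.43 FPKM in KO-1, KO-2 and KO-3, against 8.25, 7.64 and 8.50 FPKM in WT-1, WT-2 and WT-3. The groups did not overlap, and the log2 change was −0.20 (SE 0.08, limma adjusted p = 0.532). Dusp1, itself induced by stress, averaged 13.5 ± 0.0568 FPKM in KO and 12.6 ± 1.13 FPKM in WT (SD, n = 3 each). Ppm1b, the most abundant, averaged 86.3 ± 1.48 FPKM in KO and 87.8 ± 4.07 FPKM in WT.

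**Figure D5:**
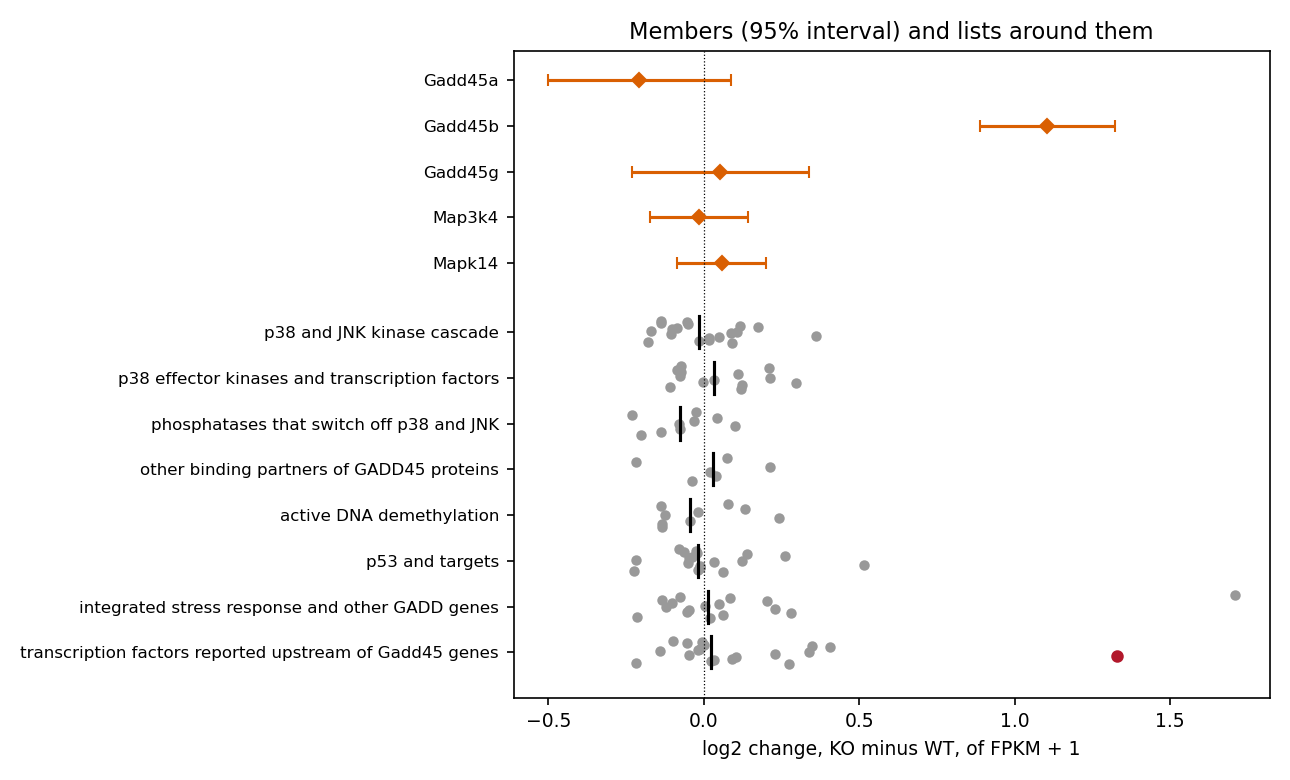
Log2 change, KO minus WT, of FPKM + 1 (x axis) for the members (diamonds with 95% intervals) and for each tested gene of the 8 lists (points, list median as a bar, called genes in red). Gadd45b lies at 1.11, every list median is within 0.08 of 0, and Cebpd is the called list gene at 1.33.

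Other partners of GADD45 proteins had no call among 6 tested, 4 higher and 2 lower, with a median of 0.03. Pcna, the sliding clamp of replication and repair, averaged 63.3 ± 1.16 FPKM in KO and 60.1 ± 3.26 FPKM in WT (SD, n = 3 each, limma adjusted p = 0.690). Cdk1 and Ccnb1, the mitotic kinase and its cyclin, were under the filter. Active DNA demethylation had none called among 9 tested, 3 higher and 6 lower, with a median of −0.04. Tet2, a 5-methylcytosine oxidase, measured 12.6, 12.6 and 12.9 FPKM in KO-1, KO-2 and KO-3, against 14.4, 13.1 and 14.7 FPKM in WT-1, WT-2 and WT-3, without overlap (log2 change −0.14, SE 0.07, limma adjusted p = 0.582). Ercc4, a repair nuclease subunit, lay above WT in each KO library at 4.76 ± 0.102 FPKM, against 4.25 ± 0.115 FPKM in WT (limma adjusted p = 0.667). Tet3, the most abundant of the list, averaged 28.6 ± 0.536 FPKM in KO and 31.6 ± 3.14 FPKM in WT.

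The p53 list, the classical inducer of Gadd45a, had no call among 19 tested members, 6 higher and 13 lower, with a median of −0.02. Bbc3, the proapoptotic PUMA, measured 1.42, 1.36 and 1.67 FPKM in KO-1, KO-2 and KO-3, against 0.643, 0.982 and 0.610 FPKM in WT-1, WT-2 and WT-3. The groups did not overlap, and the log2 change was 0.51 (SE 0.14, limma adjusted p = 0.389). Trp53 itself averaged 6.49 ± 0.415 FPKM in KO and 6.72 ± 0.891 FPKM in WT, and Cdkn1a, which encodes p21, 1.14 ± 0.483 FPKM in KO and 1.45 ± 0.311 FPKM in WT (SD, n = 3 each). Ei24, the most abundant, averaged 43.7 ± 1.70 FPKM in KO and 45.2 ± 0.941 FPKM in WT.

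The integrated stress response list, which holds the other genes named GADD, had none called among 16 tested, 9 higher and 7 lower, with a median of 0.01. Ddit3, also called GADD153 or CHOP, averaged 41.6 ± 6.27 FPKM in KO and 45.1 ± 3.38 FPKM in WT (SD, n = 3 each, limma adjusted p = 0.743). Ppp1r15a, also called GADD34, averaged 11.8 ± 0.407 FPKM in KO and 11.3 ± 0.795 FPKM in WT (limma adjusted p = 0.820). Atf4, the central transcription factor of this response, averaged 216 ± 25.4 FPKM in KO and 250 ± 25.0 FPKM in WT (limma adjusted p = 0.573). Eif2ak1, a kinase of the translation factor eIF2 alpha, lay above WT in each KO library at 13.6 ± 0.577 FPKM, against 11.5 ± 0.981 FPKM in WT (limma adjusted p = 0.474).

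Of 19 tested transcription factors reported upstream of Gadd45 genes 1 was called, with 11 higher, 8 lower and a median log2 change of 0.02. Every KO library stood above every WT library for 4 of them, and below for 1, beside 7.83% and 8.04% of all genes. Cebpd, an acute-phase factor, rose to 5.43, 7.99 and 6.53 FPKM in KO-1, KO-2 and KO-3, against 2.14, 2.60 and 1.43 FPKM in WT-1, WT-2 and WT-3. The groups did not overlap, and the log2 change was 1.33 (SE 0.18, limma adjusted p = 0.0412). The call was lost without any 1 of the 6 libraries, with limma adjusted p of 0.0680 to 0.170, and over the 14 alternatives that kept the gene, all but the filter of 5 FPKM, adjusted p ran from 0.0409 to 0.361. Stat3 lay above WT in each KO library, at 26.5 ± 2.70 FPKM against 20.7 ± 1.10 FPKM in WT (limma adjusted p = 0.284), as did Nfkb2, at 1.40 ± 0.356 FPKM against 0.807 ± 0.143 FPKM in WT (limma adjusted p = 0.515). The genotypes overlapped for Nfkb1, Rela and Relb, of the same family as Nfkb2, at log2 changes of −0.02, 0.09 and 0.23. Smad2, a mediator of TGF beta signals, lay below WT in each KO library, at 9.21 ± 0.0491 FPKM against 9.94 ± 0.671 FPKM in WT (limma adjusted p = 0.706). Nfyc, a subunit of the CCAAT binding factor NF-Y and the most abundant of the list, averaged 30.9 ± 0.808 FPKM in KO and 28.7 ± 2.19 FPKM in WT (SD, n = 3 each, limma adjusted p = 0.661).

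Marker genes of other cells were summed in each library and set beside Gadd45b. Microglial markers were higher in KO for 10 of 10, without overlap for 6, summed to 51.2 to 67.9 FPKM in KO and 39.4 to 40.8 FPKM in WT, and had none at 0. Endothelium and pericyte markers summed to 579 to 605 FPKM in KO and 538 to 558 FPKM in WT, with 5 of 10 higher and none at 0. The summed Müller glia markers overlapped between genotypes at 2087 to 2643 FPKM in KO and 1969 to 2094 FPKM in WT, with none at 0. Of the 10 Müller markers 6 were higher in KO, 4 of them in every KO library against every WT library, and 2 were lower in every KO library. Markers of cornea, ciliary body and optic nerve glia, higher for 6 of 6 tested, also overlapped, at 19.6 to 36.1 FPKM in KO and 12.4 to 20.9 FPKM in WT, with Krt5, Krt14, Mag and Dcn at 0 in some libraries. Pigment epithelium markers, higher for 5 of 7 tested, summed to 21.9 to 79.3 FPKM in KO and 28.2 to 48.7 FPKM in WT, with Best1 at 0 in some libraries. Ganglion and amacrine cell markers were lower for 8 of 11, without overlap for 3, and summed to 504 to 512 FPKM in KO and 503 to 548 FPKM in WT, with none at 0. Among all genes tested, every KO library stood above every WT library for 7.83%, and below for 8.04%. No marker of these 6 lists was called. The part of these cells in the Gadd45b difference was not tested. In whole retina, more cells of a type and more RNA per cell cannot be told apart.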

How the data were processed

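Retinal mRNA of 3 Unc119-/- and 3 Unc119+/+ libraries was analysed. Per the labels' protocols, total RNA was isolated with TRIzol and sequenced from stranded mRNA libraries. Per the submitters' processing notes, TopHat2 2.1.1 and Cuffdiff 2.2.1 were used with mm10. The labels state no gene annotation and no strand setting. FPKM tables, 1 per library, are what the authors deposited, per the file headers. FPKM values are not counts and carry no absolute depth. The most frequent ratio between libraries among genes at or under 0.3 FPKM gave their relative depth.

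Groups came from the sample titles. Genes with a mean of at least 0.5 FPKM were compared on log2(FPKM + 1) with limma 3.58.1 (R 4.3.3), with a variance trend, two-sided, Benjamini-Hochberg adjusted over all 14176, threshold 0.05. In simulated data for this comparison on 14176 genes, 94% of 200 genes changed 2-fold in FPKM + 1 were recovered, with 7 false calls. For low genes that is a larger change than 2-fold in FPKM. The changed genes were drawn from those well above the filter, with noise independent between genes. The recovered share therefore does not hold for genes near the filter, or for differences shared by many genes such as lens RNA. Tables and plots used Python 3.11.15 and pandas 2.3.3. Of the list genes, 1 was matched by an older symbol, Zak for Map3k20. The members and lists were chosen with earlier results of these data known. The genes named are the members, Unc119, and in each list the called genes, the most abundant, and those with the largest rise and fall without overlap. The genes most like Gadd45b are ranked by Pearson correlation. Other named genes were chosen after their values were seen. Alternatives were pseudocount 0.1, no filter, a filter of 5 FPKM, median-of-ratios scaling, quantile normalization, library weights, terms for replicate, sex and lens level, and leaving out each library.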

Additional observations from a re-analysis of the deposited data

How the results depend on the processing

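The number of genes called higher was 29 as reported, and 10 with no filter, 17 with a sex term, 5 with the lens term, and 9 to 24 with a library left out. The number called lower was 4, and 1 with no filter, 2 with a sex term, 2 with the lens term, and 2 to 4 with a library left out. The lists held 1 gene called higher, and 0 with no filter, with the filter of 5 FPKM, with quantile normalization, with the sex term, with the lens term and with any library left out (0 to 0). For these list counts the cause was not tested. The filter of 5 FPKM leaves out genes of low mean, and fits with fewer libraries or an added term have fewer residual degrees of freedom. The log2 change of Gadd45b was 1.25 with pseudocount 0.1, a scale that shrinks low genes less. Over all 15 alternatives it ran from 1.04 to 1.25, that of Gadd45a from −0.34 to −0.09, of Gadd45g from −0.04 to 0.19, of Map3k4 from −0.06 to 0.03 and of Mapk14 from 0.02 to 0.10.

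Replicate numbers are shared between genotypes, and the deviations of same-numbered libraries correlated at 0.07, −0.09 and −0.12. With 3 libraries per genotype, these values cannot show whether same-numbered libraries were prepared together. With the replicate block 13 genes were called higher, 2 lower and 0 on the lists. Depth is unknown, so genes near the filter are the least certain.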

Other observations

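The largest log2 change on the lists belonged to Nupr1, a stress-induced chromatin regulator, and it rested on 1 library. Nupr1 measured 7.53, 3.47 and 110 FPKM in KO-1, KO-2 and KO-3, against 2.69, 4.70 and 4.74 FPKM in WT-1, WT-2 and WT-3. The genotypes overlapped (log2 change 1.71, SE 1.03, limma adjusted p = 0.648). KO-3 is also the library in which the lens markers summed to 11552 FPKM, and the part of lens RNA in the Nupr1 value was not tested.

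Brca1, a repair gene reported to act upstream of Gadd45a, measured 2.46, 2.67 and 2.78 FPKM in KO-1, KO-2 and KO-3, against 2.05, 1.83 and 2.14 FPKM in WT-1, WT-2 and WT-3. The groups did not overlap, and it was not called (log2 change 0.28, SE 0.11, limma adjusted p = 0.519).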
